A study of Mus musculus with 2 samples.

Results

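Interferon-induced genes are the set that cells switch on when interferons reach them, and 40 of them, from Mx1 to Rsad2, were followed here across the 2 chips of one microarray comparison. The members were listed by gene symbol, and a chip's probe set was taken for a member where the platform annotation gives that symbol. Of the 40 genes, 28 had a probe set with a single symbol (25 on the chip called subA and 4 on subB, with Ifi204 on both), out of 6137 genes named on the 2 chips. Another 3 (Oas1a, Ifi203 and Tgtp1) were reached only through probe sets annotated with several genes, which are described under all their names and kept out of the counts. The remaining 9 (Isg20, Oas2, Oasl2, Stat2, Ifi35, Bst2, Ifitm1, Ifitm3 and Sp100) were named on neither chip and have no levels here. All of them but Oas2 still enter the promoter counts below.

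The RNA came from purified CD4+ T cells of spleen and lymph node of female B10.PL mice carrying a transgenic T-cell receptor for Ac1-11, an acetylated peptide of myelin basic protein, at 48 h. The labels add the abbreviation TCL, which they do not spell out, and do not say how many mice were used or whether they were pooled. The series sets stimulation with 4Y against stimulation with Ac1-11. The labels name 4Y without describing it, and whether antigen-presenting cells were in the culture is not stated. Each chip has 1 array with deposited levels and 1 baseline array known through the authors' comparison table, so no value has a replicate and no p-value is given. The sample labels call the deposited array Ac1-11 while the comparison table calls the same values 4Y (the levels are identical for all 6584 subA and all 6595 subB probe sets). Which stimulus is on which side is therefore not settled, every comparison below is deposited array over baseline array, and each chip is described apart.

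Interferons bind receptors that activate Janus kinases, which in turn phosphorylate STAT proteins. Type I interferons act largely through a complex that contains IRF9 and binds the interferon-stimulated response element in promoters, whereas interferon-gamma, made by T cells themselves, acts largely at gamma-activated sites. The products include antiviral proteins, large and small GTPases that act against intracellular parasites, and the ubiquitin-like ISG15 system, and many of the genes respond to both kinds of interferon.

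Levels are average differences, the mean signal of perfect-match over mismatch probes, which can fall below 0 for weak probe sets. The baseline level is implied by subtracting the deposited change. Folds, difference calls and the increased or decreased probe pairs are those of the authors' deposited table throughout, and a fold can depart from the ratio of the printed levels. To be counted as changed, a probe set needed a fold of at least 2, an increase or decrease call and detection, meaning a present call on the deposited array or a baseline not marked absent. This is a rule of size and not a test. The only spread that the arrays offer is that between 2 detected probe sets of a gene, an SD of 0.46 on the log2 scale on subA (251 genes) and 0.62 on subB (51 genes).

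On subA, 5 of the 14 detected member probe sets counted as higher on the deposited array (Ido1, Mx1, Iigp1, Uba7 and Irf9) and 0 as lower. Over the whole chip 1.76% of the 3343 detected probe sets counted as higher and 2.69% as lower. The probe set shared by Tgtp1 and Tgtp2 also counted as higher. Of the 5, the baselines of Ido1, Mx1, Iigp1 and Irf9 were marked absent, so these 4 were admitted only through the array on which they were high, and the count is a description of the chip and no support for a shift of the whole set. Of the 5, Uba7 alone had a baseline not marked absent, and it is the gene that remained when such a baseline was required. On subB 1 of 4 member probe sets was detected and 0 counted, where 4.25% of 1813 detected probe sets counted as higher and 1.99% as lower.

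The scale of subA touches every value that follows. On subA, 6 spike-in probe sets (bacterial control RNAs) had a present call on the deposited array. They were chosen by that call alone, whatever the mark of the baseline, a choice that can favour a fold above 1. The authors' deposited table has these 6 spike-ins 1.5-fold to 2.1-fold higher on the deposited array. Their median log2 fold was 0.68, while the median over all detected probe sets was 0.00. The detected members' median log2 fold was 0.68 as well. With folds centred on the spike-in probe sets, a choice made after the values were seen, the members' median was 0.00, 6 of 14 instead of 11 of 14 had a fold above 1, and 3 (Ido1, Mx1 and Iigp1) counted as higher. The same centring turned the counts over the whole chip to 16 higher and 145 lower, against 59 higher and 90 lower as deposited. The 5 spike-ins with a present call on the deposited subB array had a median of 0.00. Folds also went with level. The top 5% of levels among detected probe sets had a median log2 fold of 0.38 on subA and -0.26 on subB. Over all detected probe sets it was 0.00 on either chip. A running median of the folds over 300 probe sets ordered by level was also taken off. The members' median log2 fold on subA was then 0.68, and 11 of 14 had a fold above 1. The log2 fold of the 1 member detected on subB was then -1.19, against -0.93 as deposited.

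**Figure D1:**
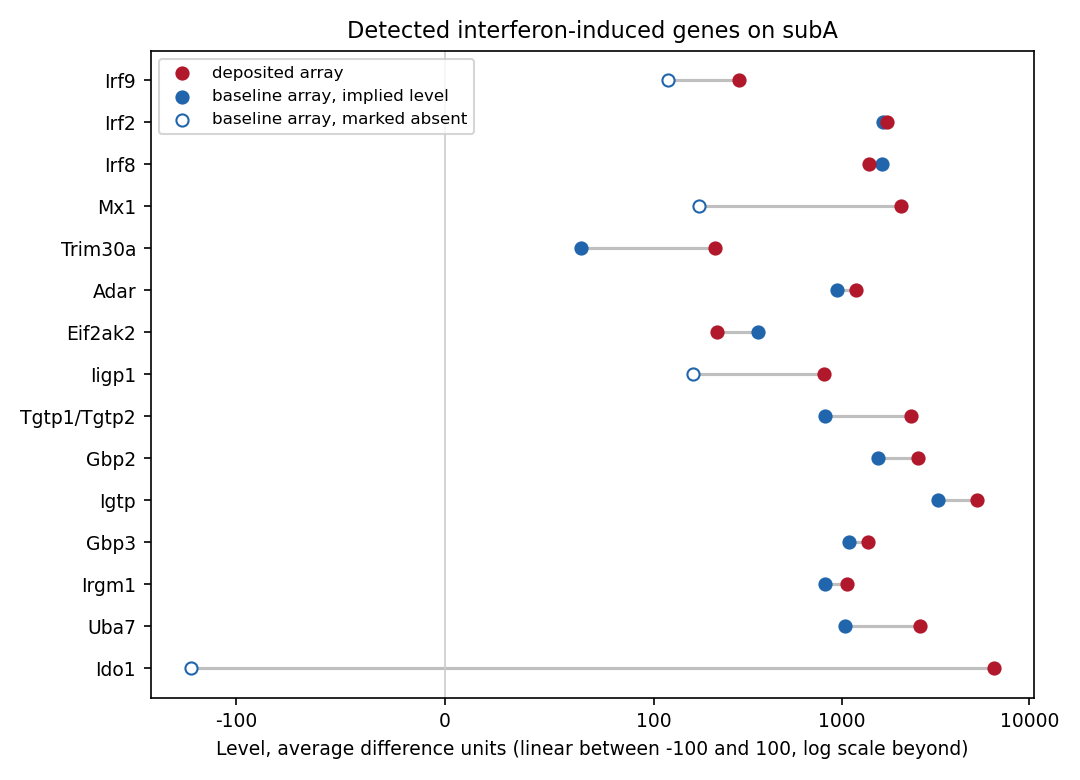
Levels of the 14 detected members and of the shared Tgtp1/Tgtp2 probe set on subA, in average difference units on an axis that is linear between -100 and 100 and logarithmic beyond. Red points are the deposited array, blue points the implied baseline, and open points a baseline marked absent; Ido1 spans the widest range, 6483 against -174.

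Among the regulators of the pathway, Irf9, the DNA-binding subunit of the complex that type I interferons activate, was the 1 of 3 detected members that counted as changed. Irf9 read 286 on the deposited array of subA, called present, against an implied 119 on the baseline array, marked absent. The authors' deposited table gave it a 2.4-fold increase, with 11 of 20 probe pairs increased and 2 decreased. Both levels were low, and with all levels below 400 raised to 400 its log2 fold of 1.26 became 0.00. Irf2, which mostly represses interferon-response promoters, stood at 1740 on the deposited array against 1658 on the baseline array, with a fold of 1.0 and 2 pairs scored each way. Irf8, a factor of myeloid and B cells that activated T cells can also express, had 1399 against 1637, a fold of 1.2 lower, and 3 pairs scored each way. Both differences lie inside the spread between probe sets of a gene.

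Irf7, which amplifies the type I response, was called absent on both arrays at 1120 on the deposited array and 739 on the baseline array, with 5 pairs increased and 0 decreased. Irf5, known for driving inflammatory cytokines in myeloid cells, was absent on both at 438 on the deposited array and 539 on the baseline array. These absent signals are not told from background, and neither gene had a difference call.

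Of the antiviral effectors, Mx1 counted as higher, Trim30a and Adar had folds above 1 without a difference call, and Eif2ak2 had a fold below 1. Mx1 encodes a dynamin-like GTPase that blocks influenza and related viruses, and many laboratory mouse strains carry a defective allele of it. It read 2064 on the deposited array, against 175 on the baseline array, 11.8-fold higher in the authors' deposited table, with 17 of 20 pairs increased and 0 decreased. The baseline was marked absent, so the size of that fold is not exact. With a floor of 400 the log2 fold of Mx1 was 2.37, against 3.56 as deposited. That floor could not turn the direction of Mx1, as only its baseline level lies below 400. Its relative Mx2, which restricts other viruses, showed no such difference: 1541 on the deposited array against 1334 on the baseline array, absent on both, with 1 pair increased and 2 decreased.

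Trim30a, a TRIM protein known to restrain innate signalling in mouse cells, had 212 on the deposited array against 65 on the baseline array, a fold of 2.3 higher with 7 pairs increased and 0 decreased, and no difference call. Adar, the adenosine deaminase that edits double-stranded RNA, had 1187 against 946, a fold of 1.5 higher with 5 pairs increased and 3 decreased. Eif2ak2, which encodes the RNA-dependent kinase PKR, had 218 on the deposited array, called absent, against 358 on the baseline array, a fold of 1.6 lower with 1 pair increased and 5 decreased. Adar's log2 fold of 0.58 lay below the spike-in median, and both it and Trim30a had no call to set beside that of Mx1.

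Several widely used markers of a type I response were not detected. Ifit1, whose product binds foreign RNA caps, was absent on both subA arrays by each of 2 probe sets, at 267 and -471 on the deposited array against 302 and -486 on the baseline array. Ifit2 stood at -4 on the deposited array against -31 on the baseline array, and Ifit3 at -134 against -40. Rsad2, which encodes the antiviral enzyme viperin, had 226 on the deposited array against 293 on the baseline array, with 1 pair increased and 4 decreased. The probe set shared by Oas1a and Oas1g, sensors of double-stranded RNA, had 837 against 785. None of these had a difference call, and an absent signal near background says nothing of whether the gene was expressed at a low level.

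The GTPases induced by interferon form 2 families, the immunity-related GTPases and the guanylate-binding proteins, both of which attack the vacuoles of intracellular parasites. All 5 detected members of these families with a single symbol had a fold above 1 on subA as deposited, against 45% of all detected probe sets, although Gbp3 and Irgm1 turned to below 1 with spike-in centring. Of the 5, Iigp1 counted as higher, and it was detected through the deposited array alone, which favours a fold above 1. Iigp1, an effector of the first family, had 804 on the deposited array and 162 on the baseline array, 4.9-fold higher in the authors' deposited table, with 9 pairs increased and 1 decreased. The probe set shared by Tgtp1 and Tgtp2, near-identical effectors of the same family, had 2345 on the deposited array against 812 on the baseline array, 2.6-fold higher with 16 of 20 pairs increased and 0 decreased. Its baseline was not marked absent, so this difference does not rest on a missing signal, and which of the genes it reads cannot be told.

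Igtp and Irgm1, regulators that keep the effectors of the family inactive on the cell's own membranes, did not count as changed. Igtp had 5269 on the deposited array against 3243 on the baseline array, a fold of 1.6 higher with 6 pairs increased and 0 decreased and no difference call. Irgm1 had 1072 against 813, a fold of 1.3 higher, although only 1 pair was scored as increased and 3 as decreased. Gbp2 had 2549 on the deposited array against 1560 on the baseline array, 1.6-fold higher with 6 pairs increased and 1 decreased, and Gbp3 had 1384 against 1101, 1.3-fold higher with 2 pairs each way. Neither had a difference call. Gbp2b was absent on both arrays, at -11 on the deposited array and -78 on the baseline array. The folds of Igtp, Gbp2, Irgm1 and Gbp3 were no larger than the spike-in median of 1.60-fold.

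**Figure D2:**
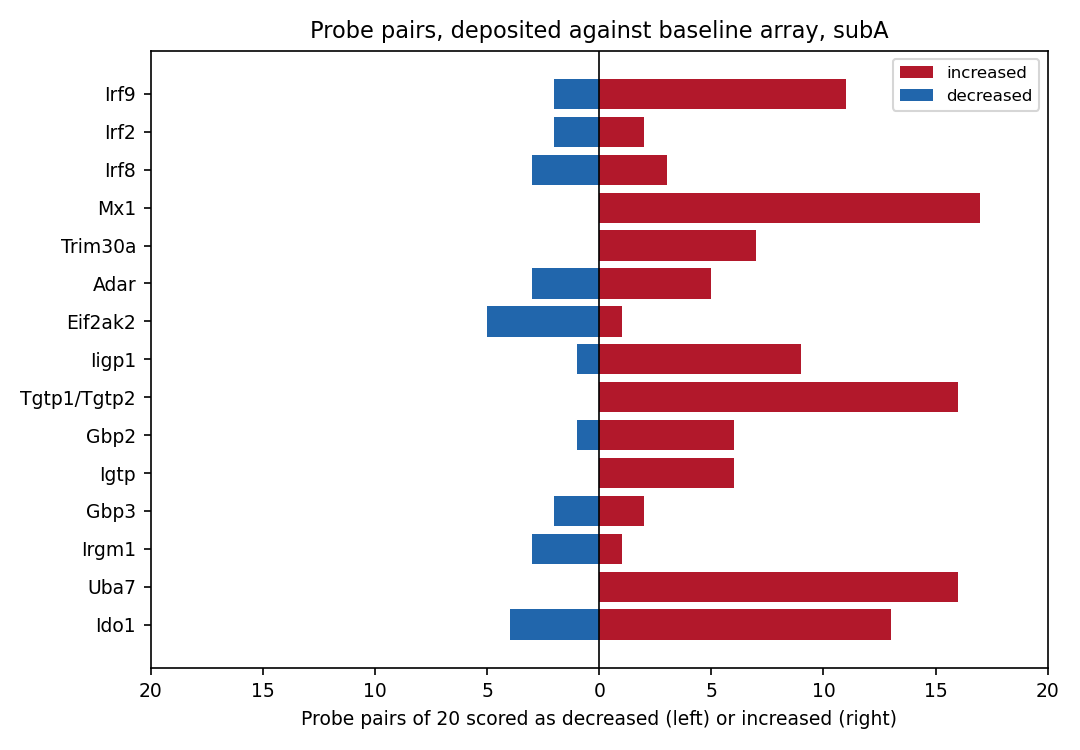
Number of the 20 probe pairs of each detected member on subA that were scored as increased (red, to the right) or decreased (blue, to the left) on the deposited array relative to the baseline array. Mx1, Uba7 and the shared Tgtp1/Tgtp2 probe set have 16 or 17 increased pairs and 0 decreased, whereas Ido1 has 13 increased and 4 decreased.

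The promoters of these GTPases are shown because several of them share the same letters near the start. RefSeq gene starts of GRCm38.p6 gave windows of 300 bases (250 before and 50 after the start) for 33 of the 40 members. Mx1, Mx2, Iigp1, Ido1, Oas2, Ifi204 and Usp18 had none in the table. The letters searched, on both strands, were GAAA, any 2 bases and GAAA again for the interferon-stimulated response element and TTCNNNGAA, which reads the same on either strand, for the gamma-activated site; overlapping matches were each counted. Below are the last 150 bases of the window, 100 before and 50 after the gene's start, with capitals on every match to either set of letters.
Tgtp1, chr11:48992197-48992346, minus strand: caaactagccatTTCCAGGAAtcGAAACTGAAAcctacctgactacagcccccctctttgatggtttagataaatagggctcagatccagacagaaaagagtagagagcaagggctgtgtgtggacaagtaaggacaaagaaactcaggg
Tgtp2, chr11:49064163-49064312, minus strand: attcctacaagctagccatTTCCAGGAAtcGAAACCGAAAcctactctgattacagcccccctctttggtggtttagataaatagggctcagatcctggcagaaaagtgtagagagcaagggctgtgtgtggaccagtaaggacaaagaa
Igtp, chr11:58199456-58199605, plus strand: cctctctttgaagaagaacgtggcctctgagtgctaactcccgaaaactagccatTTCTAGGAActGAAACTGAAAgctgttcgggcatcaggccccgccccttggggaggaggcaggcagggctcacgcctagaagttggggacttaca
Irgm1, chr11:48871371-48871520, minus strand: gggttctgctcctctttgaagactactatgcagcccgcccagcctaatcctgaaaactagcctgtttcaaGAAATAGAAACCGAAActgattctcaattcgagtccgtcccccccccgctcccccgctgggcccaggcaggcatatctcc
Gbp2, chr3:142620563-142620712, plus strand: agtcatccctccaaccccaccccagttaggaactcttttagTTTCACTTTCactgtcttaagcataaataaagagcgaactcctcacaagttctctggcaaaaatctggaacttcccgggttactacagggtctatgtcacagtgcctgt
Gbp3, chr3:142559944-142560093, plus strand: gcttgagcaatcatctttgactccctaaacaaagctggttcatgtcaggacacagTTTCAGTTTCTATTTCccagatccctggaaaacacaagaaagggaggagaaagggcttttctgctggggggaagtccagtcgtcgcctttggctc

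In Tgtp1, Tgtp2 and Igtp the gamma-activated letters were followed after 2 bases by the response-element letters, while Irgm1 and Gbp3 had 2 overlapping response-element matches and Gbp2 had 1, with no gamma-activated letters in the stretch shown. The table holds a second start of Gbp3, whose window has no match of either kind. Ifi47, a further GTPase of the first family with a fold below 1 on subB, has a window without a match, and Gbp2b, which was not detected, has 1 response-element match. The tandem arrangement, searched after it was seen, stood in 5 of 32851 windows of the whole table (0.0152%), all on chromosome 11: Tgtp1, Tgtp2, Igtp, Irgm2 and Gm12185. Response-element letters were in the windows of 19 of the 33 members (57.6%), against 3.99% of 27025 genes. Gamma-activated letters were in 13 of 33 (39.4%), against 9.55%. The 33 include members that neither chip names, among them Stat2, Bst2 and Ifitm3. A match is a run of letters and not a shown binding site.

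Of the 5 members that counted as higher, Irf9 and Uba7 have windows in the table. Their stretches of the same length are set beside that of Isg15, which was absent on both subB arrays, because the letters are found in the undetected gene and not in the other two.
Irf9, chr14:55603885-55604034, plus strand: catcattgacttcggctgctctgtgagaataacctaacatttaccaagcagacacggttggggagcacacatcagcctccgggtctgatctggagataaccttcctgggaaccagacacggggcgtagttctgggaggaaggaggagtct
Uba7, chr9:107975467-107975616, plus strand: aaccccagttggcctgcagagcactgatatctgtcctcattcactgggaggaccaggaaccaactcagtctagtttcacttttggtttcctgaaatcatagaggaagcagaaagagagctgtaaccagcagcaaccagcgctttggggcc
Isg15, chr4:156200769-156200918, minus strand: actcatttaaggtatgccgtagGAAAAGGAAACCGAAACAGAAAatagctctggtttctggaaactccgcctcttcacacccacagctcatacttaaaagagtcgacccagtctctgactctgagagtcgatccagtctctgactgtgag
Isg15 carries 3 overlapping response-element matches, and the windows of Uba7 and of both RefSeq starts of Irf9 carry none of either kind. Ifit1 and Ifit3, which were absent on both arrays, each have 2 such matches in their windows as well. No match says only that these letters are not in this window.

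Within the ISG15 system, in which the ubiquitin-like protein ISG15 is joined to targets, Uba7 counted as higher. Uba7 encodes the activating enzyme of the pathway. Its detected probe set, AA170444_at, had 2622 on the deposited array against 1048 on the baseline array, 2.5-fold higher in the authors' deposited table, with 16 of 20 pairs increased and 0 decreased and 20 of 20 positive on the deposited array. The companion probe set AA170444_g_at was absent on both arrays, at 1031 on the deposited array against 539 on the baseline array, a fold of 1.9 higher with 4 pairs increased and 1 decreased. Both had a fold above 1. The detected one had a log2 fold of 1.32, which fell to 0.64 when centred on the spike-in probe sets. A floor of 400 could not alter it, as both of its levels lie above 400.

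The other members of that system, Usp18 and Isg15, were not detected. Usp18, the protease that removes ISG15 and dampens the type I receptor, was absent on both subA arrays at 163 on the deposited array and 238 on the baseline array, with 2 pairs increased and 6 decreased. Isg15 itself was carried only by subB, where it was absent on both arrays, at 757 on the deposited array against 1092 on the baseline array. Levels cannot be set across the 2 chips, and for absent probe sets the difference in either direction was not detectable.

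Ido1, which encodes an enzyme that breaks down tryptophan and is best known from dendritic cells and macrophages exposed to interferon-gamma, had the highest deposited fold among detected probe sets of subA. Its level was 6483 on the deposited array, called present, against an implied -174 on the baseline array, marked absent. The authors' deposited table marks its fold of 74.4 as approximate, with 13 pairs increased and 4 decreased, more decreased pairs than any other of the 5 members that counted. With both levels floored at 400 its log2 fold was 4.02, against 6.22 as deposited. As the baseline level lies below 0, the ratio itself is not defined.

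Markers of the cells that commonly express Ido1 were also read. Of 15 myeloid or dendritic marker genes listed, subA names 6, of which 5 were detected and 0 counted as changed, with a summed level over detected probe sets of 12894 on the deposited array against 10535 on the baseline array and a median log2 fold of 0.00. The lysozyme gene Lyz2 stood out, at 5294 on the deposited array against 2286 on the baseline array, a fold of 6.2 higher in the authors' deposited table with 7 pairs increased, 1 decreased and no difference call. Fcgr3, an Fc receptor gene of myeloid and NK cells, had 190 against -3 without a difference call, and Fcer1g, its signalling chain, had 1224 against 2100, a fold of 1.7 lower. The macrophage gene Mpeg1 was absent on both subA arrays, at 42 on the deposited array and -39 on the baseline array. On subB, Csf1r and Adgre1, defining receptors of macrophages, were below 0 on both arrays (-1782 and -161 on the deposited array, -1350 and -147 on the baseline array). The chip names 7 of the list's genes and detected 3 of them, with 2 probe sets above 1, 2 below and 0 counted, and a summed level over detected probe sets of 9168 on the deposited array against 8729 on the baseline array. Cd14, a receptor of monocytes and macrophages, was present at 1720 on the deposited subB array against 2809 on the baseline array, a fold of 1.6 lower. The class II gene H2-Aa was present by both of its probe sets there, at 4318 and 2942 on the deposited array against 2868 and 2684 on the baseline array. On subA its detected probe sets had folds of 1.0, 1.1 and 1.0. The class II genes H2-Ab1 and H2-Eb1 were absent on both subB arrays, with H2-Ab1 at 588 on the deposited array against 976 on the baseline array. The probe sets of H2-Eb1 had 4641 and 2368 on the deposited array against 3916 and 2417 on the baseline array. Cd68, a macrophage marker, had 633 on the deposited subA array against 707 on the baseline array. In RNA from a whole population, more cells of a type and more RNA per cell cannot be told apart, and the part of such cells in the value of Ido1 was not tested.

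T-cell markers were detected on both chips, by 4 genes on subA and 6 on subB, as the label CD4+ T cell implies. Cd3e had 13557 on the deposited subA array against 9955 on the baseline array, and Cd4 had 19607 on the deposited subB array against 28344 on the baseline array, a fold of 1.4 lower with a decrease call. On subB 5 of the 6 detected T-cell probe sets had a fold below 1, against 866 of all 1813 detected there. The top 5% of levels on that chip had a median log2 fold of -0.26. Among the 5 were Cd3d, 1.8-fold lower with a decrease call, and Cd3g, which counted as lower at 4317 on the deposited array against 9078 on the baseline array. On subA Cd28 was 1.6-fold lower with a decrease call, and Cd5 read only 625 on the deposited array against 570 on the baseline array. Cd8a was below 0 on both subB arrays (-1568 on the deposited array, -1337 on the baseline array). The B-cell list had a summed level over detected probe sets of 4595 on the deposited array against 5663 on the baseline array on subA, with Ighm detected at 2684 against 3173. On subB the detected Ighm probe set went the other way, at 2820 on the deposited array against 2118 on the baseline array. Its fold was 1.3 higher without a difference call. Cd22, Cd72 and Ms4a1 on subA and Cd79a and Pax5 on subB were not detected. The NK-cell gene Klrb1c was not detected, at 11 on the deposited subA array against 83 on the baseline array.

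The last group, the p200 proteins that sense DNA, was not detected. On subA Ifi202b had 20 on the deposited array against -50 on the baseline array, and Ifi204 had -53 against -52. The probe set that the annotation gives to Ifi203 with Ifi203-ps and LOC100862473 had 122 against 46. On subB Ifi204 had -32 on the deposited array against 137 on the baseline array. Over all 13 single-symbol member probe sets that were not detected on subA, deposited levels ran between -471 and 1541 and baseline levels between -486 and 1334. Of them 7 had a fold above 1, 5 below and 1 at 1.0, and none had a difference call.

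Ifi47, another GTPase of the immunity-related family, was the only member detected on subB. It had 55 on the deposited array, called absent, against 427 on the baseline array, an approximate fold of 1.9 lower with 0 pairs increased and 2 decreased and no difference call. Oas1g, which with Isg15 and Ifi204 completes the 4 members of this chip, was absent on both arrays at 1117 on the deposited array against 863 on the baseline array. The chip therefore offers no called value for any member.

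**Figure D3:**
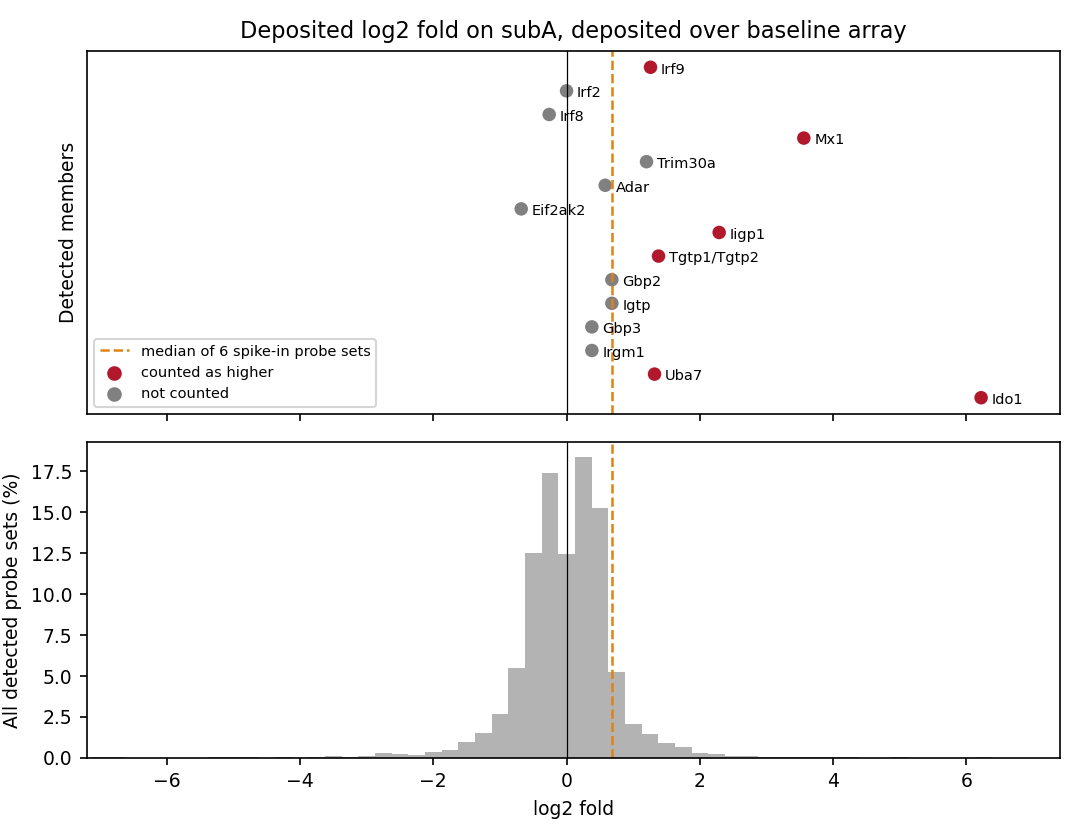
Top, deposited log2 folds (deposited over baseline array) of the detected members on subA, red where counted as higher and grey where not. Bottom, the share of all 3343 detected probe sets in bins of log2 fold; the dashed line is the spike-in median of 0.68, right of which lie Ido1, Mx1, Iigp1, the shared Tgtp1/Tgtp2 probe set, Uba7, Irf9 and Trim30a.

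The probe pairs were also counted directly. Across the 14 detected members on subA, 9 had more increased than decreased pairs, 2 had more decreased and 3 had equal numbers, against 44.9% of all detected probe sets with more increased pairs. Among the 10 whose baseline was not marked absent, 5 had more increased pairs, against 41.2% of all such probe sets on the chip. The median net share (increased minus decreased, of the pairs used) was 27.5% for the 14 members, 5% for those 10 and 0% for all detected probe sets. Over the 13 members not detected, 6 had more increased and 6 more decreased pairs. The deposited change of the log average ratio, a score of perfect match over mismatch whose factor is not stated, was above 0 for 11 of the 14 detected members, against 53.5% of all detected probe sets. These counts share the 2 arrays with the folds, and the 4 members admitted through the deposited array alone are among them.

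**Figure D4:**
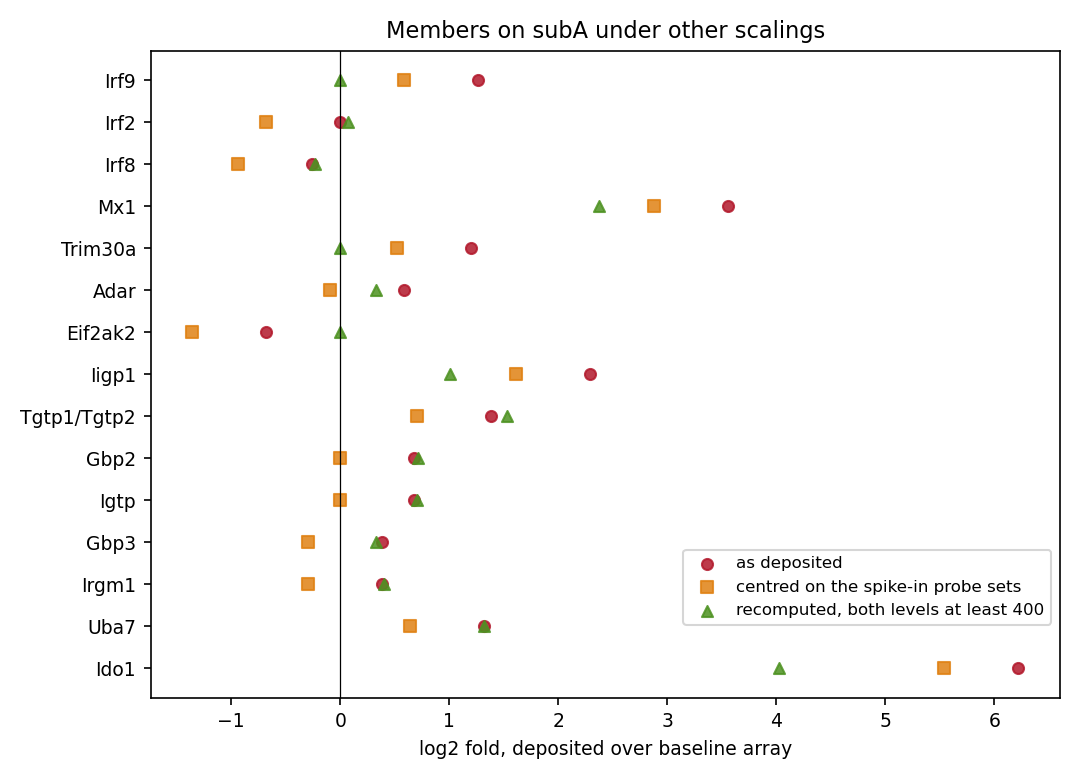
Log2 folds of the detected members on subA as deposited (red circles), centred on the median of the 6 spike-in probe sets (orange squares) and recomputed with both levels at least 400 (green triangles). Ido1, Mx1 and Iigp1 stay at 1.01 or above in each of these, whereas Irf9 and Trim30a fall to 0.00 with the floor and Gbp2 and Igtp to 0.00 with the spike-in centring.

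The rest of the pathway was followed through 5 lists. Among ligands and receptors on subA, 1 of 3 detected genes counted as lower and 0 as higher, against 2.69% lower and 1.76% higher over the chip. That gene was Ifng, which encodes interferon-gamma, with 105 on the deposited array, called absent, against 10716 on the baseline array and 17 of 20 pairs decreased. The ligand-binding receptor chain Ifngr1 had 2982 on the deposited array against 1280 on the baseline array, a fold of 2.0 higher with 13 pairs increased and 2 decreased but no difference call. Ifnar2, a chain of the type I receptor, had 280 on the deposited array, called absent, against 573 on the baseline array, a fold of 2.0 lower with a marginal decrease call. The type I ligand gene Ifnb1 and the receptor gene Ifnar1 were not detected on subA. On subB, Ifna1, a type I interferon, had 882 on the deposited array against 948 on the baseline array. Ifna5 had 307 against 856, an approximate fold of 2.3 lower without a call.

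Of the Janus kinases, STATs and other IRFs, 10 genes were detected by 13 probe sets on subA and 0 counted as changed. Jak3, the kinase of the common gamma chain, had 20563 on the deposited array against 16114 on the baseline array, a fold of 1.3 higher. Jak1, used by every interferon receptor, had 1647 against 1583, a fold of 1.0. Jak2, used by the interferon-gamma receptor, had a fold below 1 by all 3 detected probe sets, 2.0, 1.7 and 1.3 lower in the authors' deposited table. A decrease call was given for the 1.7-fold value alone. The 1.3-fold probe set had 4 pairs increased and 2 decreased, against its fold, and a baseline marked absent. Irf1, an early target of interferon-gamma, had 6449 on the deposited array against 4802 on the baseline array, 1.3-fold higher with 3 pairs increased and 0 decreased. Irf4, a factor induced through the T-cell receptor, had 2582 against 2877. Irf3, a sensor-activated factor, was below 0 on both arrays, at -1271 on the deposited array, called absent, against -569 on the baseline array. It passed as detected only because its baseline was not marked absent. Its approximate fold of 8.7 lower, with 3 pairs increased and 6 decreased, had no difference call. Stat3, Stat4, Stat5a and Stat6 had folds between 1.5 lower and 1.2 higher, all without a call, and on subB Stat5b was 1.3-fold higher without one.

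Among the inhibitors of interferon signalling, 1 of 8 detected genes counted as lower on subA, against 2.69% over the chip, and 0 as higher. It was the phosphatase gene Ptpn6, with 1465 on the deposited array against 4165 on the baseline array, 2.8-fold lower with 14 pairs decreased and 1 increased. Socs1, the feedback inhibitor of Janus kinases that interferon-gamma induces, had 6319 against 7285, and Socs3 had 2405 against 2747, both within the spread between probe sets of a gene.

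Antigen processing genes are raised by interferon-gamma in most cells. On subA 9 of their 11 detected probe sets had a fold above 1, against 45% of all detected there. On subB 5 of 6 had a fold below 1, against 866 of all 1813 detected there. The top 5% of levels leaned the same way on each chip (median log2 fold 0.38 on subA, -0.26 on subB). The part of level in the folds of this list was not tested. On subA 0 counted as changed. Psmb9, an immunoproteasome subunit, had 11091 on the deposited array against 6522 on the baseline array, 1.6-fold higher with an increase call. Tapbp, the peptide-loading chaperone tapasin, had 21683 against 13898, also 1.6-fold higher with an increase call. The list's median log2 fold on subA was 0.58, less than the spike-in median. On subB the list's median was -0.43 and 1 of 6 counted as higher (4.25% over that chip), Cd74, the invariant chain of class II molecules, with 9129 on the deposited array against 3146 on the baseline array, 2.9-fold higher with 18 of 20 pairs increased. The class I light chain B2m had 58994 against 84281 there, a fold of 1.4 lower.

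The list of further interferon-induced genes had 17 detected probe sets on subA, of which 10 had a fold above 1, 5 below and 2 at 1.0, with 0 counted. Cd47 and Samhd1, a nucleotide hydrolase that restricts viruses, had increase calls at 1.8-fold and 1.5-fold higher. Ly6e had 26486 on the deposited array against 15831 on the baseline array, 1.7-fold higher without a call, and Plscr1, a scramblase gene, had 443 against 1310, a fold of 3.0 lower without a call. The interferon-induced chemokine genes Cxcl9 and Cxcl10 were not detected. On subB 4 probe sets were detected, all with a fold below 1, and 1 counted as lower (1.99% over that chip): Lgals3bp, a secreted galectin-binding protein, with 4929 on the deposited array against 16300 on the baseline array, 3.3-fold lower with 18 pairs decreased and 0 increased.

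**Figure D5:**
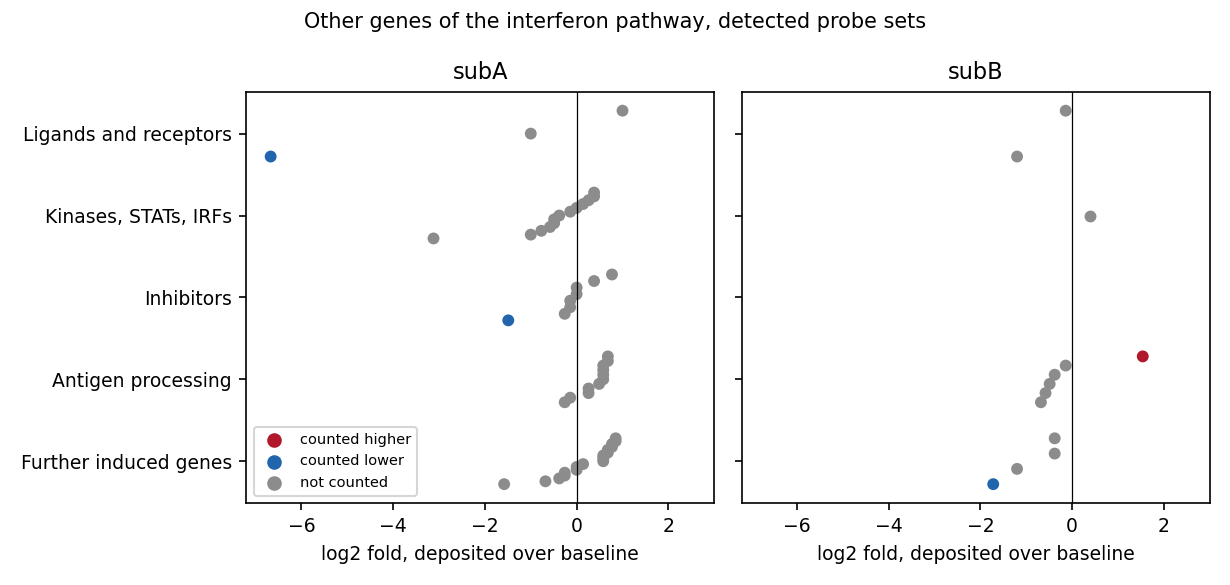
Deposited log2 folds (deposited over baseline array) of detected probe sets in the 5 other lists of the pathway, subA left and subB right, red where counted as higher, blue where counted as lower and grey where not counted. Ifng and Ptpn6 on subA and Lgals3bp on subB are the blue points, and Cd74 on subB is the red one.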

How the data were processed

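Members were the 40 listed symbols, matched to the symbols of the platform annotation after a check of Entrez IDs against RefSeq (GRCm38.p6), which altered 0 symbols. Per the file headers, the authors deposited array intensity values as average differences, a signed fold as a score and counts of probe pairs. How the arrays were scaled, and with which software version, is not given in the sources used here. Folds carry a mark where approximate (214 of the detected probe sets on subA, 277 on subB) and were kept. The baseline level was computed as level minus change, and a baseline with an asterisk was read as absent. Control probe sets (55 on each chip) took no part in the counts. Every carried member was named, together with members of the pathway lists that counted and the detected receptors, kinases, STATs and IRFs. The members and lists were chosen with earlier results of these data known. Columns of other samples numbered 0. Most member probe sets have names ending in _s_at, _f_at or _g_at, which mark probes that related transcripts may share. The counting was tested on simulated data. With 1 array on each side, precision is limited by the number of arrays. Tools were matplotlib 3.10.9, NumPy 2.4.6 and pandas 2.3.3 under Python 3.11.15.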

Additional observations from a re-analysis of the deposited data

Results flagged for a closer look

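Genes of the pathway lists detected on both chips were picked out here where their folds in the authors' deposited table were above 1 by every detected probe set on subA and below 1 on subB, and 4 were found. These 4 are all the genes of the lists that were detected on both chips by probe sets with a single symbol. No gene of the lists that could be compared therefore had folds on the same side of 1 on both chips. None of the members could be among them, because no member was detected on both chips. The log2 fold on subA minus that on subB was 1.36 for Psmb9, 1.23 for Cd47, 1.17 for H2-D1 and 0.64 for Psmb8. This difference between the chips was not tested.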

How the results depend on the processing

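No paired analysis was possible because each chip has 1 deposited array. Values with no test were read against the SD between probe sets of a gene, and counts against a factor of 1.5. The count of 5 members higher on subA was between 4 and 6 under 8 of the 11 alternatives, and was 3 with a fold threshold of 3, 3 with spike-in centring and 1 (Uba7) where a baseline not marked absent was required. Most of those 8 could not lower the count. They loosened a rule, subtracted a chip median of 0.00 or asked for a present call that all 5 members had. Leaving out approximate folds could lower it and gave 4. The number with a fold above 1 was 6 with spike-in centring and 7 of 10 with that baseline filter, and the median 0.00 with the centring. The median net share of pairs was 5% with no detection filter and 61.1% of the pairs scored as changed. On subB the count of members was 0 under each alternative. The single log2 fold of Ifi47 was -2.09 with a floor of 100 and -0.09 with a floor of 400, its net share was -100% of the pairs scored as changed, and with no detection filter 1 of 4 had a fold above 1. With a present call required, or without approximate folds, no member of subB was left to give a median. For the other pathway lists, the count of 2 on subA was 8 with a threshold of 1.5, 1 with a threshold of 3, 8 by difference call alone, 7 by fold alone and 1 with a present call required. On subB it was 1 with a threshold of 3 and 4 by fold alone. For all probe sets, the count of 149 on subA was 235 and 66 with thresholds of 1.5 and 3, 249 by call alone and 383 by fold alone. On subB the count of 113 was 46 with a threshold of 3, 275 by fold alone, 176 with no detection filter and 66 without approximate folds. The centring, the filter on the baseline and the probe sets of several symbols were added after the data were seen. Except where a setting is itself a filter or threshold, the cause was not tested.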
